A study of Homo sapiens with 3 samples.

Results

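The collagen and laminin genes of Caki-1 cells were described here, as the protein-coding genes of the deposited table whose symbols have the form of a collagen chain (COL, a number, A and a number) or of a laminin chain (LAM, then A, B or C, and a number). The rule used names only and no measured value. It found 56 genes, 44 of them collagens and 12 laminins, among 19233 protein-coding genes and 44591 genes in all. Of the 56, 24 genes (16 collagens and 8 laminins) reached a mean of 1 RPKM (reads scaled to gene length and to the reads of the library) over the 3 libraries, and log2 ratios were computed for these. Just inside this limit was COL5A1, with a mean of 2.21 RPKM, and just outside it was LAMA5, with a mean of 0.753 RPKM.

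Caki-1 is an established human renal carcinoma line, labelled as clear cell renal cell carcinoma. The cells had received either si-Control, an siRNA used as the control, or an siRNA directed at RBCK1, of which there were 2, si-RBCK1 #1 and si-RBCK1 #2 (si-HOIL-1#1 and si-HOIL-1#2 in the sample titles), and RNA was taken 48 h later. RBCK1, also called HOIL-1, is a ubiquitin ligase subunit, and the study asked which genes change when it is depleted. All 3 cultures were thus transfected, and untransfected cells were not analysed here. There was 1 library per condition, so no difference given here has a replicate check, and none has a p-value. The siRNAs, being distinct reagents, were never averaged. Both si-RBCK1 libraries were compared with the same si-Control library, so the values of the comparisons are given side by side and not as independent results.

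Collagens are secreted proteins whose chains wind together into a helix, and the genes of 1 type encode the chains that assemble with each other. Laminins are cross-shaped proteins made of an alpha, a beta and a gamma chain, and each combination of chains is a distinct laminin. Laminins and collagen IV form the sheets of the basement membrane, on which tubular epithelium of the kidney rests, while fibrillar collagens belong mainly to connective tissue and fibroblasts.

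With si-RBCK1 #1, 20 of the 24 genes were lower than with si-Control, among them all 8 laminins, and 4 were higher (COL4A1, COL6A1, COL27A1 and COL8A1). Of all 12403 genes whose mean reached 1 RPKM, 48.4% were lower and 51.5% higher in this comparison. With si-RBCK1 #2, 12 of the 24 were lower and 12 higher, where 46.4% of all genes were lower and 53.5% higher. The genes furthest from control were LAMB2 with si-RBCK1 #1, at 49.2% of its control level, and COL5A2 with si-RBCK1 #2, at 49.9%. On the log2(RPKM + 1) scale, on which all log2 ratios are given unless reads are named, 0 of 24 genes differed at least 2-fold from si-Control with either siRNA, while 6.18% of all genes did so with si-RBCK1 #1 and 4.76% with si-RBCK1 #2.

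The targeted gene was checked first. RBCK1 was at 33.3 RPKM with si-Control, at 9.97 RPKM with si-RBCK1 #1 and at 12.3 RPKM with si-RBCK1 #2, which is 29.9% and 36.8% of control. The RPKM values had been scaled by 36926834, 40442939 and 36344428 reads, and whole reads could be recovered for all 24 genes. The 95% intervals below come from these reads (exact Clopper-Pearson) and cover counting error only. The tissue label was set beside markers. PAX8, a transcription factor of renal epithelium, was at 124, 82.5 and 107 RPKM with si-Control, si-RBCK1 #1 and si-RBCK1 #2, and CA9, a hypoxia-induced marker of clear cell carcinoma, was at 0.0636 RPKM or less. The epithelial keratins KRT8 (65.6, 172 and 238 RPKM) and KRT18 (95.3, 142 and 172 RPKM) and the mesenchymal filament gene vimentin (VIM; 664, 1512 and 1392 RPKM) were higher with each siRNA than with si-Control. Their part in the collagen and laminin values was not tested. PAX2, KRT19, EPCAM and CDH16 had means under 1 RPKM, so 4 of the 9 renal markers passed. None of 7 fibroblast, 5 endothelial and 5 leukocyte markers did, and their summed levels were 0.870 to 1.02, 0.0729 to 0.0863 and 0.132 to 0.368 RPKM. CD3E was listed at 0 throughout, and THY1, FAP and DCN were at 0.0422 RPKM or less. The summed markers of the 3 cell types were thus below the level of every one of the 24 genes. In bulk RNA, fewer cells of a kind and less RNA per cell cannot be told apart.

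The siRNAs are shown because the sequence at their seeds could be looked for in the collagen and laminin transcripts. The sense strands listed by the study are printed with bases 12 to 18 in capitals, the stretch of a transcript that would pair with bases 2 to 8 of the guide strand.
si-RBCK1 #1: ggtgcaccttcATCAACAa
si-RBCK1 #2: ggattaccagcGATTTCTa
Both 19-base strands were found whole in the longest coding transcript of 1 gene only, RBCK1, among 10553 protein-coding genes that passed the limit. The capital letters of si-RBCK1 #1 occurred in the longest coding transcripts of 5 of 24 genes, LAMA4, LAMA1, COL27A1 and COL6A3 among them, and in 23.8% of all 10553. Those of si-RBCK1 #2 occurred in 5 of 24 (LAMB1, COL18A1, LAMA1, LAMB2 and COL4A5), and in 29.2% of all. LAMA4 held the letters of si-RBCK1 #1 at 2 sites, and LAMA1, COL27A1 and COL6A3 held them at 1 site each. Each of the 5 genes named for si-RBCK1 #2 held its letters at 1 site. With si-RBCK1 #1, the log2 ratios of the named genes holding its letters were -0.54 (LAMA4), -0.27 (LAMA1), 0.35 (COL27A1) and -0.15 (COL6A3). With si-RBCK1 #2, those of the genes holding its letters were 0.0014 (LAMB1), 0.25 (COL18A1), 0.26 (LAMA1), -0.37 (LAMB2) and -0.26 (COL4A5). The part of seed matches in the ratios was not tested. Such a match is a description of letters and not a measured siRNA effect.

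A further set of sequences is shown for COL4A1 and COL4A2, the chains of the widespread type IV collagen, because these neighbours gave opposite log2 ratios (below) although they start side by side. In the deposited table, whose build is hg19 by the submitters' processing notes, COL4A1 lies at chr13:110801305-110959504 on the minus strand and COL4A2 at chr13:110959614-111165556 on the plus strand, with 109 bases between them. The promoter windows of RefSeq (build GRCh38.p14) run from 250 bases before to 50 bases after the start of each gene, chr13:110307108-110307407 (minus strand) for COL4A1 and chr13:110307034-110307333 (plus strand) for COL4A2. Capitals mark GGGCGG or its reverse CCGCCC (the GC box) and CCAAT or its reverse ATTGG.
COL4A1: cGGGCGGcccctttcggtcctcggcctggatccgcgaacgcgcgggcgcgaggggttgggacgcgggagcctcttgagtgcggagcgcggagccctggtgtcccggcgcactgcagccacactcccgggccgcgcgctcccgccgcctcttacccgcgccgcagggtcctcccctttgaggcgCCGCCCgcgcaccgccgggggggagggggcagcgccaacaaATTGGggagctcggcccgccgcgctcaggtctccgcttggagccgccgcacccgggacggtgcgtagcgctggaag
COL4A2: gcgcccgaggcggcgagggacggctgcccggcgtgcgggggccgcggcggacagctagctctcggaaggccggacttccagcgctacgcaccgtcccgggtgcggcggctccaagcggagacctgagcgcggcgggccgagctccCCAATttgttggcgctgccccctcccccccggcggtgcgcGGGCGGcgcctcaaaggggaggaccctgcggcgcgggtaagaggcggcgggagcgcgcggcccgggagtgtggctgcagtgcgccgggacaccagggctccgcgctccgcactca
The starts lie 127 bases apart, and the 226 bases that the windows share are the same DNA read from opposite strands. The COL4A1 window held 2 GC boxes and the COL4A2 window 1, each held 1 CCAAT, and neither held TATAAA or TTTATA. GC content was 76.7% and 77.7%. In all, 17 of the 24 genes were matched, to 21 promoter windows. Of the 21 windows 18 held a GC box, beside 44.95% of 35116 windows of all genes. CCAAT or its reverse was found in 4 of the 21 (COL4A1, COL4A2, COL4A5 and LAMB3; 34.6% of all windows) and TATAAA or its reverse in 3 (COL18A1, COL6A2 and COL7A1; 11.5% of all windows). COL6A1, LAMA1, COL5A2, COL8A1, COL1A1 and COL14A1 were among those not matched.

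**Figure D1:**
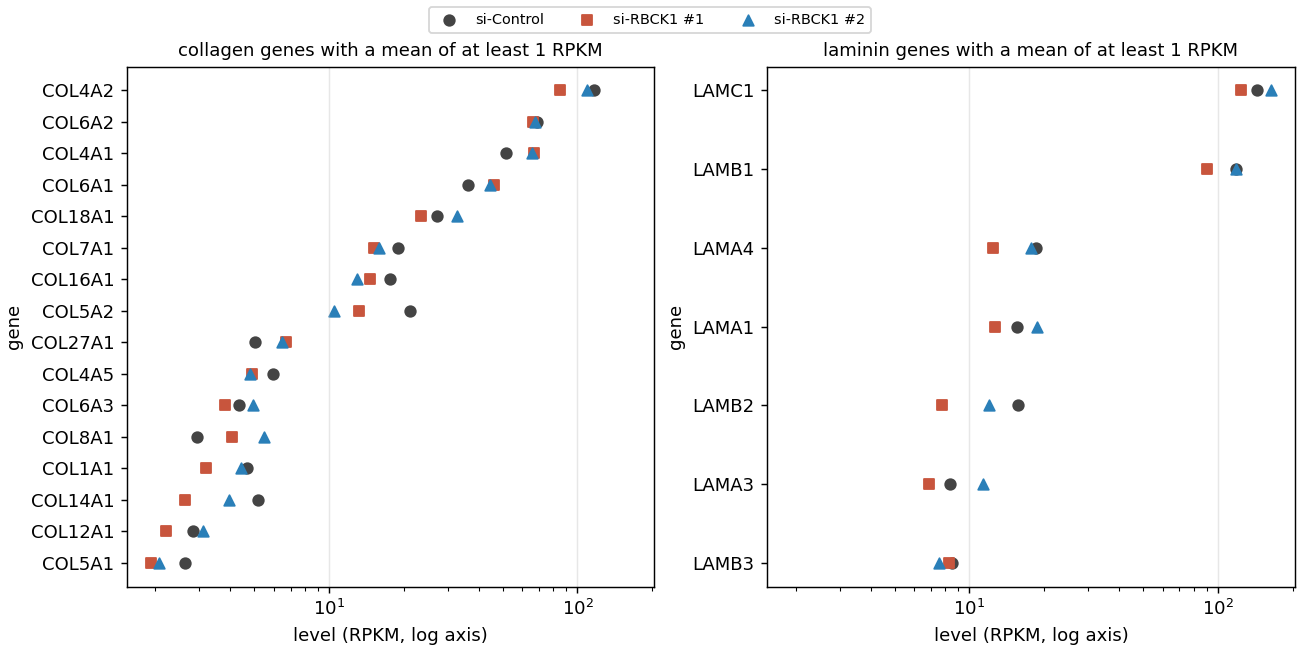
Level of the collagen and laminin genes named here whose mean reached 1 RPKM, in RPKM on a log axis, with 1 point per library (circle, si-Control; square, si-RBCK1 #1; triangle, si-RBCK1 #2). LAMC1, LAMB1 and COL4A2 have the highest mean levels, and the points of most genes lie close together, with COL5A2, LAMB2 and COL14A1 spread furthest on the low side of control.

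LAMC1 and LAMB1, the gamma and beta chains shared by most laminins, were the most abundant of all 56 genes and together held 78.1%, 79.9% and 79.2% of the summed laminin RPKM with si-Control, si-RBCK1 #1 and si-RBCK1 #2. LAMC1 (chr1:182992595-183114727) was at 143, 124 and 163 RPKM in the same order, from 41665, 39535 and 46730 reads. The si-RBCK1 #1 value was the lowest of the 3 and the si-RBCK1 #2 value the highest, at log2 ratios of -0.21 and 0.19. LAMB1 (chr7:107564246-107643804) was at 118, 90.1 and 118 RPKM. It was lower with si-RBCK1 #1 (log2 ratio -0.39) and level with control with si-RBCK1 #2 (0.0014), where the interval of the read ratio, -0.02 to 0.03, included 0. Antisense rows overlap both genes in the table, at 3.51, 2.43 and 2.53 RPKM for LAMC1 and at 3.03, 5.86 and 8.23 RPKM for LAMB1. The library kit was directional by the labels, but the strand setting of the counting is not given in the sources used here.

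Among alpha chains, LAMA4, which is typical of vessel and mesenchymal basement membranes, was at 18.5, 12.4 and 17.7 RPKM. LAMA1, the alpha chain of the first laminin of embryonic basement membranes, was at 15.5, 12.7 and 18.7 RPKM, and LAMA3, the alpha chain of the laminin that anchors epithelia at hemidesmosomes, was at 8.37, 6.88 and 11.3 RPKM. With si-RBCK1 #1 all 3 were lower than control (log2 ratios -0.54, -0.27 and -0.25). With si-RBCK1 #2, LAMA4 was slightly lower (-0.06) and LAMA1 and LAMA3 were higher (0.26 and 0.39), and the intervals of their read ratios, 0.22 to 0.32 and 0.37 to 0.50, lay above 0. LAMA4 held 42.3% of alpha chain RPKM with si-Control, 38.0% with si-RBCK1 #1 and 36.1% with si-RBCK1 #2, and LAMA1 held 35.3%, 38.8% and 38.2%. LAMA4 was thus ahead of LAMA1 with si-Control, and their shares lay close together in both si-RBCK1 libraries. LAMA5, the main alpha chain of mature kidney basement membranes, was at 0.933, 0.472 and 0.854 RPKM (394, 218 and 355 reads) and LAMA2 at 0.495, 0.255 and 0.420 RPKM, both under the limit for ratios.

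LAMB2, the beta chain that replaces LAMB1 in the mature glomerular basement membrane, was at 15.7, 7.72 and 11.9 RPKM, from 3365, 1814 and 2520 reads. Its log2 ratios were -0.94 and -0.37, and those of its reads -1.02 (interval -1.11 to -0.94) and -0.39 (-0.47 to -0.32), so it was below control with each siRNA and lower with si-RBCK1 #1. Its share of beta chain RPKM was 11.025% with si-Control, 7.28% with si-RBCK1 #1 and 8.67% with si-RBCK1 #2. LAMB3, which joins LAMA3 in the epithelial anchoring laminin, stood at 8.54, 8.24 and 7.56 RPKM. With si-RBCK1 #1 the interval of its read ratio included 0, and with si-RBCK1 #2 it was lower (log2 ratio -0.16, read interval -0.29 to -0.06). With si-RBCK1 #2 LAMA3 was thus above control and its partner LAMB3 below it. LAMB4 and LAMC3 were at 0.0634 RPKM or less.

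**Figure D2:**
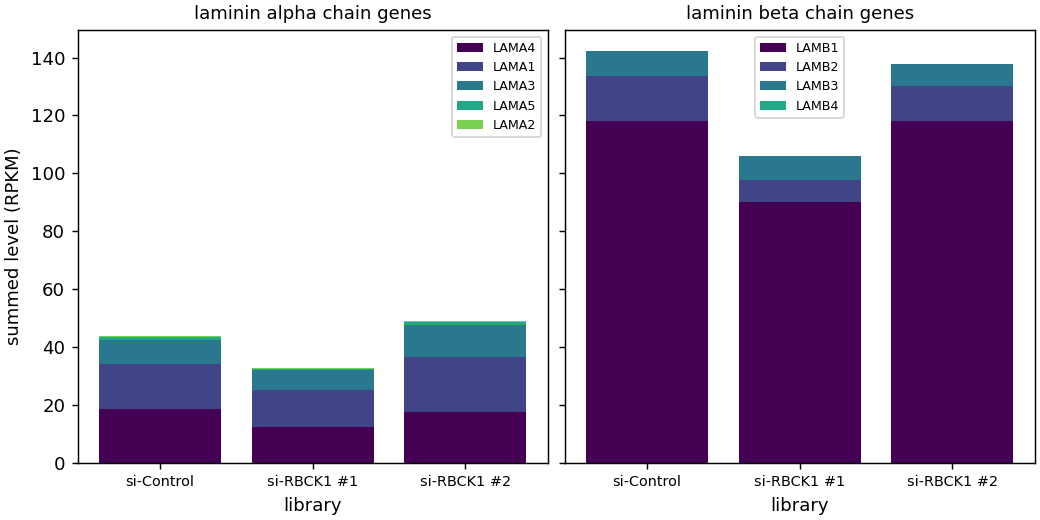
Summed level of the laminin alpha and beta chain genes in RPKM (vertical axis, from 0) in each library, each bar stacked by gene. The bars of si-RBCK1 #1 are the lowest in both panels (32.8 and 106 RPKM), and those of si-Control (43.8 and 142 RPKM) and si-RBCK1 #2 (49.0 and 138 RPKM) are taller.

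Summed over its members, the alpha class was at 43.8, 32.8 and 49.0 RPKM and the beta class at 142, 106 and 138 RPKM. The 12 laminins together were at 334, 268 and 355 RPKM. In both classes and in the total the si-RBCK1 #1 library was the lowest. The level of LAMB1 per LAMC1 was 0.825 with si-Control, 0.727 with si-RBCK1 #1 and 0.725 with si-RBCK1 #2.

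COL4A1 and COL4A2 held 42.8%, 41.9% and 44.2% of the summed collagen RPKM. COL4A1 was at 51.7, 66.7 and 65.9 RPKM, from 14226, 20106 and 17851 reads, and both si-RBCK1 libraries were above control (log2 ratios 0.36 and 0.34, read intervals 0.34 to 0.40 and 0.32 to 0.38). COL4A2 was at 117, 84.7 and 109 RPKM, from 27916, 22138 and 25616 reads, and both si-RBCK1 libraries were below control (-0.46 and -0.10, read intervals -0.49 to -0.44 and -0.13 to -0.08). These neighbours, whose promoter windows are shown above and whose proteins assemble with each other, thus lay on opposite sides of control, by more than counting error. The level of COL4A1 per COL4A2 was 0.442 with si-Control, 0.787 with si-RBCK1 #1 and 0.604 with si-RBCK1 #2. An RNA named for its place opposite COL4A2, COL4A2-AS1, was at 0.352 RPKM or less.

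The other collagen IV genes also lie head to head in the table. COL4A5, whose chain belongs to the collagen IV network of the glomerulus, was at 5.97, 4.92 and 4.82 RPKM (log2 ratios -0.24 and -0.26). Its neighbour COL4A6, 346 bases away on the opposite strand of chromosome X, had 66, 69 and 38 reads, under 0.260 RPKM. COL4A3 and COL4A4 encode the partners of the COL4A5 chain and lie 5 bases apart on chromosome 2. Their values fit as few as 5, 1 and 7 reads and 19, 24 and 12 reads. Those of COL4A3 gave whole reads at a length of 4046 nt, while its longest coding transcript has 8097 nt, so its true reads may be more. COL4A5 was hence measured well while the chains it assembles with in the kidney were near 0.

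Collagen VI forms beaded filaments next to basement membranes. COL6A2 (chr21:47518033-47552763) was at 68.9, 66.5 and 67.7 RPKM, and its log2 ratios of -0.05 and -0.02 were the closest to 0 among the collagens. COL6A1 (chr21:47401663-47424963) was at 36.1, 46.2 and 44.6 RPKM, above control with each siRNA (0.35 and 0.30, read intervals 0.31 to 0.40 and 0.25 to 0.35). COL6A3, the large chain that completes the collagen VI molecule, was at 4.32, 3.80 and 4.96 RPKM, lower with si-RBCK1 #1 (-0.15) and higher with si-RBCK1 #2 (0.16). The level of COL6A1 per COL6A2 went from 0.524 with si-Control to 0.695 and 0.658. These genes lie on the same strand of chromosome 21, 93069 bases apart, and here too the ratio of neighbouring chains differed between libraries. COL6A5 and COL6A6 were at 0.0520 RPKM or less.

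COL18A1, a basement membrane collagen that carries heparan sulfate and releases endostatin, was at 27.2, 23.5 and 32.6 RPKM (log2 ratios -0.21 and 0.25). COL7A1, the collagen of the anchoring fibrils under epithelia, was at 18.9, 15.2 and 15.9 RPKM (-0.30 and -0.24). The first of these was below control with si-RBCK1 #1 and above it with si-RBCK1 #2, and the second was below control with each. COL8A1, a short network-forming collagen, was at 2.94, 4.06 and 5.49 RPKM, at log2 ratios of 0.36 and 0.72. Its RPKM values fit as few as 55, 83 and 101 reads, so its intervals are the widest among the 24 genes (-0.05 to 0.98 and 0.41 to 1.40 on the log2 scale of reads). Its deposited values gave whole reads at a length of 506 nt, while its longest coding transcript has 5705 nt, so the true reads may be more and the intervals narrower.

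Among fibrillar collagens, COL5A2, a chain of the type V collagen that starts and thins collagen I fibrils, was at 21.1, 13.2 and 10.5 RPKM, from 5396, 3705 and 2648 reads (chr2:189896641-190044605). Its log2 ratios were -0.64 and -0.94, and on the read scale the ratio with si-RBCK1 #2 was -1.004 (interval -1.07 to -0.94). The levels in both si-RBCK1 libraries were well below the control level, with si-RBCK1 #2 the lower. COL5A1, the partner chain, was at 2.64, 1.92 and 2.07 RPKM (-0.32 and -0.25), so the level of COL5A1 per COL5A2 was 0.125, 0.145 and 0.197. COL1A1, a chain of the main collagen of skin and bone, was at 4.68, 3.21 and 4.41 RPKM, lower with si-RBCK1 #1 (-0.43) and with a read interval of -0.22 to 0.04 with si-RBCK1 #2. COL27A1, a fibrillar collagen of cartilage, was at 5.03, 6.71 and 6.48 RPKM, above control with each siRNA (0.35 and 0.31). COL1A2 and COL3A1, which fibroblasts express strongly, had only 9, 7 and 5 reads and 9, 1 and 2 reads. COL1A1 thus stood alone among the genes of collagens I and III in passing 1 RPKM.

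Fibril-associated collagens bind the surface of collagen fibrils. COL16A1 was at 17.5, 14.7 and 12.9 RPKM (log2 ratios -0.24 and -0.41), COL14A1 at 5.16, 2.63 and 3.95 RPKM (-0.76 and -0.32), and COL12A1 at 2.84, 2.21 and 3.10 RPKM (-0.26 and 0.09). All 3 were below control with si-RBCK1 #1, and with si-RBCK1 #2 COL16A1 and COL14A1 were below it while COL12A1 was slightly above. On the read scale COL14A1 was at -0.97 (interval -1.09 to -0.85) with si-RBCK1 #1. Summed levels were 25.7, 19.9 and 20.3 RPKM for the fibril-associated class and 33.8, 25.3 and 23.7 RPKM for the fibrillar class, the latter mostly COL5A2. Collagen VI was at 109, 117 and 117 RPKM and collagen IV at 175, 157 and 180 RPKM. The 44 collagens together were at 394, 362 and 396 RPKM, so the lower fibrillar sums stood beside a total that was close to control with si-RBCK1 #2.

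The 32 genes under the limit were 28 collagens and 4 laminins, and all but LAMA5 stayed under 0.5 RPKM in every library. COL13A1, a transmembrane collagen, had 44, 23 and 6 reads, COL17A1, the transmembrane collagen of hemidesmosomes, had 11, 39 and 36 reads, and COL25A1, a transmembrane collagen of neurons, had 36, 6 and 11 reads. COL5A3 had 0, 17 and 2 reads and COL2A1, the collagen of cartilage, had 1, 0 and 9 reads. Counts this low give wide intervals, and no ratio is given for them. The rest, COL1A2, COL3A1, COL4A3, COL4A4, COL4A6, COL6A5, COL6A6, COL8A2, COL9A1, COL9A2, COL9A3, COL10A1, COL11A1, COL11A2, COL15A1, COL19A1, COL20A1, COL21A1, COL22A1, COL23A1, COL24A1, COL26A1, COL28A1, LAMA2, LAMB4 and LAMC3, ranged from 0 to 0.495 RPKM.

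Set against all genes, the si-RBCK1 #1 ratios of the 16 collagens had a median of -0.24 and those of the 8 laminins a median of -0.26, where the median of all 12403 genes was 0.02. Of the collagens, 12 were lower and 4 higher. At a limit of 1.5-fold, 3 of 24 genes were lower (COL5A2, LAMB2 and COL14A1) and 0 higher, beside 11.6% of all genes lower and 12.1% higher. Counting intervals lay below 0 for 18 of 24 genes and above 0 for 3 (COL4A1, COL6A1 and COL27A1), beside 37.5% and 40.2% of all genes for which reads were recovered. Most of the lower values were thus small in size. Such intervals narrow as reads rise, so these counts and shares, here and below, also depend on the reads of the genes.

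With si-RBCK1 #2 the median was -0.05 for the collagens and 0.04 for the laminins, beside 0.03 for all genes. Of the collagens 9 were lower and 7 higher, and of the laminins 3 were lower (LAMA4, LAMB2 and LAMB3) and 5 higher. At 1.5-fold, COL5A2 was lower and COL8A1 higher, beside 9.32% and 11.3% of all genes. Counting intervals lay below 0 for 10 of 24 genes and above 0 for 10, beside 34.1% and 41.0% of all genes. The quartiles of the 24 ratios were -0.24 and 0.25, beside -0.26 and 0.33 for all genes in this library.

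**Figure D3:**
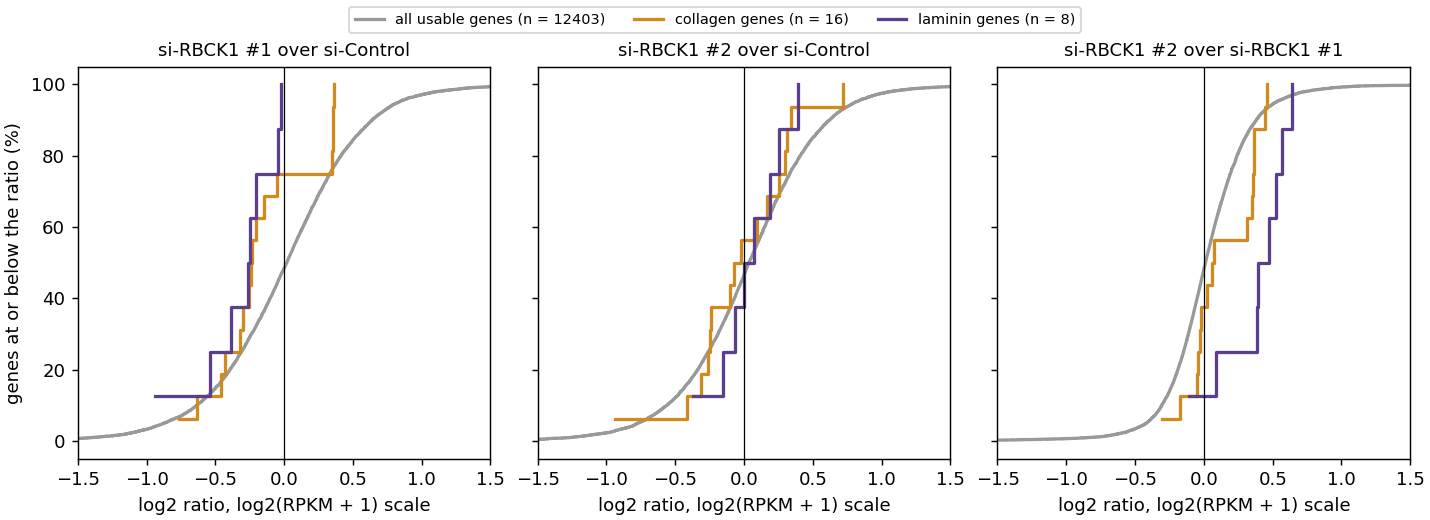
Share of genes at or below each log2 ratio (percent, vertical axis; ratio on the log2(RPKM + 1) scale, horizontal axis) for all 12403 genes (grey), 16 collagens (orange) and 8 laminins (purple), in 3 comparisons. Above its lowest gene the laminin curve lies left of the grey curve for si-RBCK1 #1, near it for si-RBCK1 #2, and right of it for si-RBCK1 #2 over si-RBCK1 #1, with medians of -0.26, 0.04 and 0.43.

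Because the laminins gave such unlike values with the siRNAs, the si-RBCK1 libraries were also compared with each other, a comparison added after these values were seen. The 8 laminins had a median log2 ratio of 0.43 for si-RBCK1 #2 over si-RBCK1 #1 and the 16 collagens of 0.07, where all genes had 0.01. Of the 8 laminins 7 were higher with si-RBCK1 #2, with LAMB3 the exception, and of the 16 collagens 10 were, so 17 of 24 genes were higher, beside 51.8% of all genes. Counting intervals lay above 0 for 14 of the 24 and below 0 for 4, beside 33.3% and 29.1% of all genes. On the read scale LAMA3 was at 0.72, LAMB2 at 0.63, LAMA1 at 0.56, LAMA4 at 0.51, LAMC1 at 0.40 and LAMB1 at 0.39. COL14A1 (0.59), COL18A1 (0.48) and COL4A2 (0.36) were higher as well, while COL5A2 (-0.33) and COL16A1 (-0.18) were lower. LAMA3 passed 1.5-fold, as did 3.85% of all genes in this direction. The gap between the siRNAs thus touched most laminin genes, those of common and of tissue-specific chains alike.

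Transcript length and GC content also moved with this ratio. Of the 24 genes, 21 have a longest coding transcript of at least 5000 nt. Among all protein-coding genes matched to a transcript, the 2874 with at least 5000 nt had a median of 0.06 for si-RBCK1 #2 over si-RBCK1 #1, and 60.3% of them were above 0, and with si-RBCK1 #1 over si-Control their median was -0.07. The 3078 genes with at least 55% GC had a median of 0.11 in the direct comparison, while those with 45 to 55% GC had -0.03. GC content also went with the ratios to si-Control. Genes under 45% GC and those with at least 55% had medians of -0.12 and 0.15 with si-RBCK1 #1. With si-RBCK1 #2 these medians were -0.14 and 0.26. The collagens ranged from 46.3% GC (COL12A1) to 67.2% (COL18A1), so the medians of all genes are not matched to them in GC. LAMA4 (46.6% GC), LAMC1 (48.7%), LAMB1 (49.5%), LAMA3 (50.7%) and LAMA1 (50.9%) belong to the 45 to 55% class, while LAMB3 (58.9%) and LAMB2 (60.3%) belong to that of at least 55%. The part of length and base composition in the collagen and laminin values was not tested.

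Genes whose products fold, trim, cross-link or accompany collagens and laminins were taken from lists written from general knowledge. Earlier results of these data were known when the lists were chosen, so the lists are not independent of the data. In the list of collagen folding and modification, 17 of 18 genes were found by name (all but CTAGE5), and 15 passed the limit. Of these, 11 were higher and 4 lower with si-RBCK1 #1, as with si-RBCK1 #2. Their medians were 0.24 and 0.23, beside 51.5% and 53.5% of all genes higher. At 1.5-fold, 2 were higher and 0 lower with si-RBCK1 #1, and 1 was higher and 1 lower with si-RBCK1 #2, beside 12.1% and 11.3% of all genes higher and 11.6% and 9.32% lower. SERPINH1, the collagen chaperone HSP47, was at 79.8, 114 and 107 RPKM, and PPIB, a proline isomerase of the endoplasmic reticulum, at 147, 217 and 198 RPKM. COLGALT1, which adds galactose to collagen hydroxylysine, was at 76.6, 118 and 95.9 RPKM (log2 ratios 0.62 and 0.32), and MIA3, a receptor that loads procollagen for export, at 11.2, 15.1 and 17.5 RPKM (0.41 and 0.60). All 4 of these were above control with each siRNA. The 4 genes of the list on the low side were P4HA1, a prolyl hydroxylase subunit, at 21.1, 20.7 and 19.0 RPKM, P3H2, a prolyl 3-hydroxylase, at 73.2, 59.7 and 58.8 RPKM (log2 ratios -0.29 and -0.31), PLOD2, the lysyl hydroxylase of telopeptides, at 186, 132 and 140 RPKM (-0.49 and -0.41), and LARP6, which binds collagen I messenger RNA, at 33.1, 23.8 and 21.7 RPKM (-0.46 and -0.59).

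In the list of procollagen processing and cross-linking, 7 of 14 genes passed, with medians of -0.27 and -0.07, and 1 was higher and 6 lower with si-RBCK1 #1 and 2 higher and 5 lower with si-RBCK1 #2, beside 48.4% and 46.4% of all genes lower. LOX, the lysyl oxidase that cross-links collagen, was at 37.5, 22.6 and 24.1 RPKM (log2 ratios -0.70 and -0.62). LOXL2, a relative that cross-links collagen IV, was at 174, 129 and 144 RPKM, and LOXL4 was at 2.44, 1.03 and 1.20 RPKM (-0.76 and -0.65). All 3 lysyl oxidases that passed were below control with each siRNA. PCOLCE2, an enhancer of procollagen cleavage, was at 5.30, 9.54 and 6.97 RPKM (0.74 and 0.34).

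Among 13 other basement membrane genes, 9 passed, with medians of -0.35 and -0.03, and 7 were lower and 2 higher with si-RBCK1 #1 and 5 lower and 4 higher with si-RBCK1 #2, beside 48.4% and 46.4% of all genes lower. AGRN, the heparan sulfate proteoglycan agrin that binds laminin, was at 101, 68.0 and 102 RPKM (log2 ratios -0.57 and 0.01), and TINAGL1, a matricellular protein of tubular basement membranes, at 58.4, 36.0 and 65.2 RPKM (-0.68 and 0.16). HSPG2, the proteoglycan perlecan, was at 12.8, 11.8 and 19.3 RPKM (-0.11 and 0.56). Of these 9 genes, 7 were higher with si-RBCK1 #2 than with si-RBCK1 #1, beside 51.8% of all genes. NID1, which links laminin to collagen IV, was at 32.4, 35.5 and 31.0 RPKM, and FN1, fibronectin, at 2228, 1498 and 1762 RPKM. SPARC, a collagen-binding matricellular protein, was at 152, 304 and 199 RPKM (0.997 and 0.39).

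Of 8 receptors other than integrins, 5 passed. DDR2, LAIR1 and GP6 had means under the limit. DDR2 was at 1.44 RPKM with si-Control, 0.456 with si-RBCK1 #1 and 0.228 with si-RBCK1 #2, from 173, 60 and 27 reads. SDC1, the proteoglycan syndecan-1, was at 10.8, 31.9 and 28.97 RPKM (log2 ratios 1.48 and 1.35). BCAM, a receptor for the LAMA5 chain, was at 3.15, 0.749 and 2.09 RPKM (-1.25 and -0.42), and DAG1, the laminin receptor dystroglycan, at 7.37, 9.46 and 13.3 RPKM (0.32 and 0.77). DDR1, a collagen receptor kinase, was at 15.4, 16.5 and 17.8 RPKM, and SDC4, syndecan-4, at 99.4, 82.1 and 101 RPKM. At 2-fold, SDC1 was higher with each siRNA and BCAM lower with si-RBCK1 #1, where 6.18% of all genes differed 2-fold with si-RBCK1 #1 and 4.76% with si-RBCK1 #2.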

How the data were processed

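RNA of 3 Caki-1 cultures was made into directional libraries after ribosomal RNA removal and read from both ends, per the labels. The authors deposited 1 RPKM value per gene and library. The submitters' processing notes name Trimmomatic, FastQC, TopHat2, HTSeq and the build hg19, and the annotation and the tool that gave RPKM are not given in the sources used here. Another 5 columns of the deposited table hold the authors' own comparison (control and treated RPKM, the log2 of their ratio, and the p-value with its q-value) and were not used.

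Log2 ratios were computed on log2(RPKM + 1) for genes whose mean reached 1 RPKM, a scale that understates the change of low genes. Library totals were found from genes up to 200 nt long, whose values step by a constant, and each gene's reads as the smallest whole numbers (within 0.005 reads) at a length up to 50000 nt. Depth was thus recovered from the deposited RPKM. Every gene under the name rule whose mean reached 1 RPKM is named with its values, except 1 that is counted but not reported here, the others by name and range, and further genes come from the lists given. The genes and lists were chosen with earlier results of these data known. Transcripts for the seed search came from GENCODE v29 (GRCh38), and 0 of the 24 genes have the same start or end there as in the table, so its coordinates were not mixed with those of the table. Promoter windows came from RefSeq. The steps were tested on simulated data. Alternatives were pseudocounts of 0.1 and 5 RPKM, a limit of 5 RPKM on the mean or none, scaling to equal medians or equal totals, limits of 1.5-fold and 4-fold, ratios of recovered reads with no pseudocount, and means in place of medians. The software was scipy 1.17.1, pandas 2.3.3 and numpy 2.4.6 under Python 3.11.15, with matplotlib 3.10.9 for figures.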

Additional observations from a re-analysis of the deposited data

Results flagged for a closer look

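For 6 of the 24 genes the si-RBCK1 libraries lay on opposite sides of si-Control, with the counting intervals of both ratios away from 0. Of 12344 genes with recovered reads, 4.58% did so. Counting intervals narrow as reads rise, so such a call also depends on the reads of a gene. The log2 ratios with si-RBCK1 #1 and si-RBCK1 #2 were -0.21 and 0.19 for LAMC1, -0.21 and 0.25 for COL18A1, -0.27 and 0.26 for LAMA1, -0.25 and 0.39 for LAMA3, -0.15 and 0.16 for COL6A3, and -0.26 and 0.094 for COL12A1. With 1 library per siRNA the difference between the siRNAs was not tested.

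COL18A1-AS2, a long noncoding RNA opposite COL18A1 that no comparison above used, had 0 reads with si-Control, 4 with si-RBCK1 #1 and 5 with si-RBCK1 #2. A count of 0 allows up to 3 reads, so these values are barely above it.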

How the results depend on the processing

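No paired analysis was possible because there was 1 library per condition, and for the same reason no library could be left out. Of the values of single genes, 286 shifted by less than the distance from the middle of their counting interval to its end. Another 36 shifted by more, and 2 took the other sign. The 286 include all values under a limit on the mean of 5 RPKM or none. Such a limit leaves the ratio of a gene unchanged by construction, so those values could not move. The 2 were LAMB1 with si-RBCK1 #2, at -0.049 after scaling to equal medians and at -0.031 after scaling to equal totals. Those scalings shift all ratios by -0.01 and -0.06 for si-RBCK1 #1 and by -0.05 and -0.03 for si-RBCK1 #2. The count of genes at least 2-fold from control with si-RBCK1 #1 was 1 (LAMB2) with a pseudocount of 0.1 RPKM, and at 1.5-fold the counts were 3 with si-RBCK1 #1, 2 with si-RBCK1 #2 and 1 with both. At 4-fold they were 0. As ratios of recovered reads, for which no count was taken, LAMB2 with si-RBCK1 #1 (-1.02) and COL5A2 with si-RBCK1 #2 (-1.004) passed 2-fold. The collagen median with si-RBCK1 #1 was -0.14 with a pseudocount of 5 RPKM and -0.014 with no filter, which adds 28 collagens near 0, and that with si-RBCK1 #2 took the other sign with no filter, at 0.0087. The laminin median was -0.33 with si-RBCK1 #1 when taken as a mean, and with si-RBCK1 #2 it took the other sign after scaling to equal medians, at -0.011. A higher pseudocount shrinks ratios of low genes by construction, and the cause of the other shifts was not tested. Genes of a few reads, such as COL3A1 and COL4A3, give no usable ratio at this depth.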

Other observations

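Other rows of the table are named after collagen and laminin genes. COL18A1-AS1 had 13 reads with si-Control, 5 with si-RBCK1 #1 and 2 with si-RBCK1 #2. COL4A2-AS1 had 7, 5 and 6 reads, and COL4A2-AS2 had 1 read in each library. COL5A1-AS1 and LAMB2P1 were listed at 0 in all 3. MIR455, a microRNA gene inside COL27A1 on the same strand, was at 0, 1.803 and 0 RPKM.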
